A study of Homo sapiens with 12 samples.

Results

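Replication-dependent histone genes were examined in HUDEP-2, a line of immortalised human erythroid precursors that was derived from umbilical cord blood. Members were chosen by gene symbol alone, as the genes named H1-1 to H1-6 or named H2AC, H2BC, H3C or H4C with a number, and 66 of the 54628 listed genes met this rule. They comprise 6 H1, 16 H2A, 17 H2B, 13 H3 and 14 H4 genes. The rule itself uses no measured value, but the members were chosen with earlier results of these data known. The 12 RNA-seq libraries fall into 4 groups of 3 replicates. All groups carried lentiviral dCas9-KRAB, a repressor directed by a guide RNA, and were sorted for GFP. The sgControl groups had a scrambled guide and the sgEGR1 groups a guide to an element upstream of EGR1, a transcription factor gene. Cells were starved for 5 h and then received PBS or 50 ng/mL of SCF, the ligand of the Kit receptor, for 1 h. The study's methods call the replicates biological and say that their cells were isolated individually. Whether they were kept as separate cultures before treatment is not stated, so p-values measure the spread between these libraries.

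Replication-dependent histone genes supply the core histones H2A, H2B, H3 and H4 and the linker histone H1 when DNA is copied. They lie in clusters, mostly lack introns, and are transcribed mainly in S phase under NPAT, a coactivator switched on by cyclin E and CDK2. Their mRNAs usually end in a short stem-loop bound by SLBP in place of a poly(A) tail, and most are degraded when DNA synthesis stops. Replication-independent relatives such as H3-3B or H2AZ1 are spliced, polyadenylated and used throughout the cell cycle. The library kit named in the labels selects mRNA, and selection by poly(A) retains histone mRNA poorly. The counts below may therefore stand for a small and uneven share of histone RNA. In bulk RNA, fewer cells in S phase and less histone RNA per cell cannot be told apart.

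A stem-loop near the 3′ end marks these transcripts. The letters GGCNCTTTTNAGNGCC were found in the last 150 bases of the canonical GENCODE v44 transcript of 61 of 66 members (92.4%), against 0.335% of 20018 protein-coding genes and 6 of the 19952 genes outside the list. The 5 members without these letters were H2AC15, H2BC10, H2BC21, H3C6 and H4C13. The canonical transcript of H2BC21 has 2224 bases, so the letters could lie outside the 150 bases searched. Each sequence below gives 26 bases of the sense strand around the stem-loop of a member called in a comparison below, or of H4C3, with the stem-loop in capitals.
H1-3: taaacGGCTCTTTTCAGAGCCaccca
H2AC4: gcaaaGGCTCTTTTCAGAGCCaccta
H2AC17: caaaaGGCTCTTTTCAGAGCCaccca
H3C10: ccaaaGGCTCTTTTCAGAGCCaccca
H4C3: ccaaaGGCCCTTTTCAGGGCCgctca
H4C9: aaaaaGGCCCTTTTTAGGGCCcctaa
The stem differed between families. All 13 H4 members that held the letters had GGCCC paired with GGGCC, whereas 47 of the 48 members of the other families that held them had GGCTC paired with GAGCC. The exception was H2AC11, with GGCTC and GGGCC.

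Library totals ran from 23.5 to 32.04 megacounts, and members took 3770 to 5739 counts of each library. EGR1, which checks the guide, was at 5.99 to 10.9 counts per megacount of library total (CPM, with totals scaled by TMM) in sgControl PBS, 171.4 to 239.5 CPM in sgControl SCF and 0.977 to 2.04 CPM in sgEGR1 PBS. The libraries labelled sgEGR1 SCF held 40.4, 57.4 and 203.6 CPM. The last of these, the library labelled sgEGR1 SCF replicate 3, lay within the sgControl SCF range, which goes against its label, and the main counts and calls that use it are also given without it. Replicate 1 of every group stood apart, with 26.6% of the 15492 genes tested called in a term for replicate 1. All 9 erythroid markers were detected, and MPO, ELANE, CD3E and PF4, which mark other blood cells, were at 0 in every library. LYZ and COL1A1 reached at most 6 and 13 counts and SPI1 lay between 241 and 483 counts.

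Of the 66 members, 63 had any count, 60 exceeded a floor of 3 counts in at least 1 library, and 52 exceeded it in all 12. H2AC1, H2BC1 and H4C14 were at 0 throughout. The filter on low counts kept 53 members for testing. Of the 13 that did not pass, 8 have a coding sequence identical to that of another member (H2AC18 and H2AC19, H3C14 and H3C15, H4C11 and H4C12, H4C14 and H4C15), so reads from them cannot be placed by their coding sequence. How reads with several matches were counted is not given in the sources used here. The other 5 were H1-1, H1-6, H2AC1, H2BC1 and H4C7. Of the members, 55 lie on chromosome 6 and 11 on chromosome 1. In sgControl PBS replicate 1 the chromosome 6 members summed to 197.6 CPM and the chromosome 1 members to 9.72 CPM.

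Per kilobase of canonical transcript, the highest mean levels over the 12 libraries were those of H2BC12 (34.5 CPM per kilobase), H1-2 (27.4) and H4C3 (24.9). H2BC5 (15.6), H2BC4 (14.6) and H2AC17 (10.7) followed. The most abundant H3 members per kilobase were H3C3 (8.38), H3C10 (6.91) and H3C7 (5.79). The RefSeq genes H2BC12, H2BC4 and H2BC5 span 8566, 10757 and 13229 bases, far more than their canonical transcripts of 495, 460 and 486 bases. Their level per kilobase rests on the short form.

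After SCF, the replication-dependent histone genes were lower in sgControl cells. The members summed to 207.3, 190.7 and 205.0 CPM in the sgControl PBS libraries and to 150.4, 138.5 and 135.5 CPM in the sgControl SCF libraries. Every SCF library lay below every PBS library, and the mean went from 201.0 ± 9.01 to 141.5 ± 7.86 CPM (SD, n = 3), a ratio of 0.704. The exact Poisson 95% interval of a single library was narrow by comparison, from 202.0 to 212.8 CPM for the first of these libraries and from 131.5 to 139.6 CPM for the last, and it covers counting error only. The ratio of SCF to PBS was 0.608 for H4, 0.648 for H2A, 0.649 for H3, 0.762 for H2B and 0.795 for H1 genes. Such ratios of sums weigh abundant members most. H1-2 alone held a mean of 20.8 of the 33.99 CPM of H1 genes in sgControl PBS. Median log2 fold changes of tested members were -0.69 for H4, -0.73 for H2A, -0.61 for H3, -0.59 for H2B and -0.51 for H1. In each of the 5 families the 3 SCF libraries lay below the 3 PBS libraries.

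**Figure D1:**
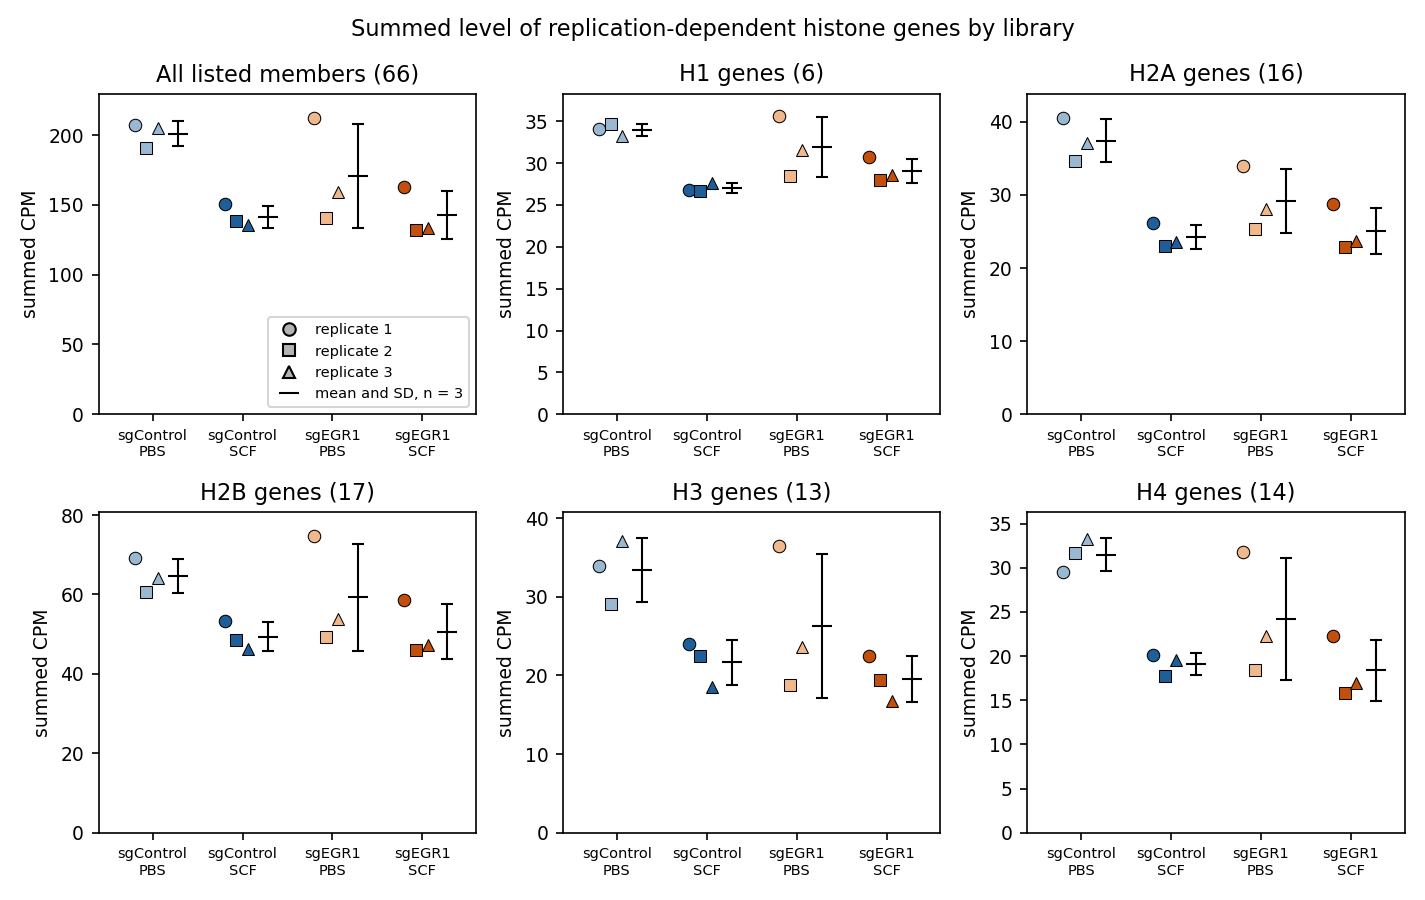
Summed CPM of the 66 listed members and of each family in the 12 libraries, with the group mean and SD (n = 3) beside the points. In sgControl cells the SCF libraries lie below the PBS libraries in each panel, and sgEGR1 PBS replicate 1 (circle) lies above sgEGR1 PBS replicates 2 and 3.

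Of the 53 members tested, 5 fell and 0 rose in sgControl cells, at an adjusted p under 0.05 in edgeR. Among all genes tested, 2.89% were called, and 0.775% were called lower. At an unadjusted p under 0.05 there were 24 members, all lower, against 6.18% of all genes. The log2 fold change was negative in 53 of 53 members, against 51.8% of all genes, and ran from -1.47 (H2BC18, named here after its values were seen) to -0.14 (H2BC12), with a median of -0.61 beside -0.006 for all genes. The 3 SCF libraries lay below the 3 PBS libraries in 32 members (60.4%), against 9.24% of all genes. These counts describe the members that passed the filter, some of which may have passed through the group in which they were high. A joint test of any difference among the 4 groups called 3 of the 53 (H1-3, H3C10 and H4C3) beside 3.9% of all genes, with the lowest edgeR adjusted p of 0.0176 for H1-3.

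**Figure D2:**
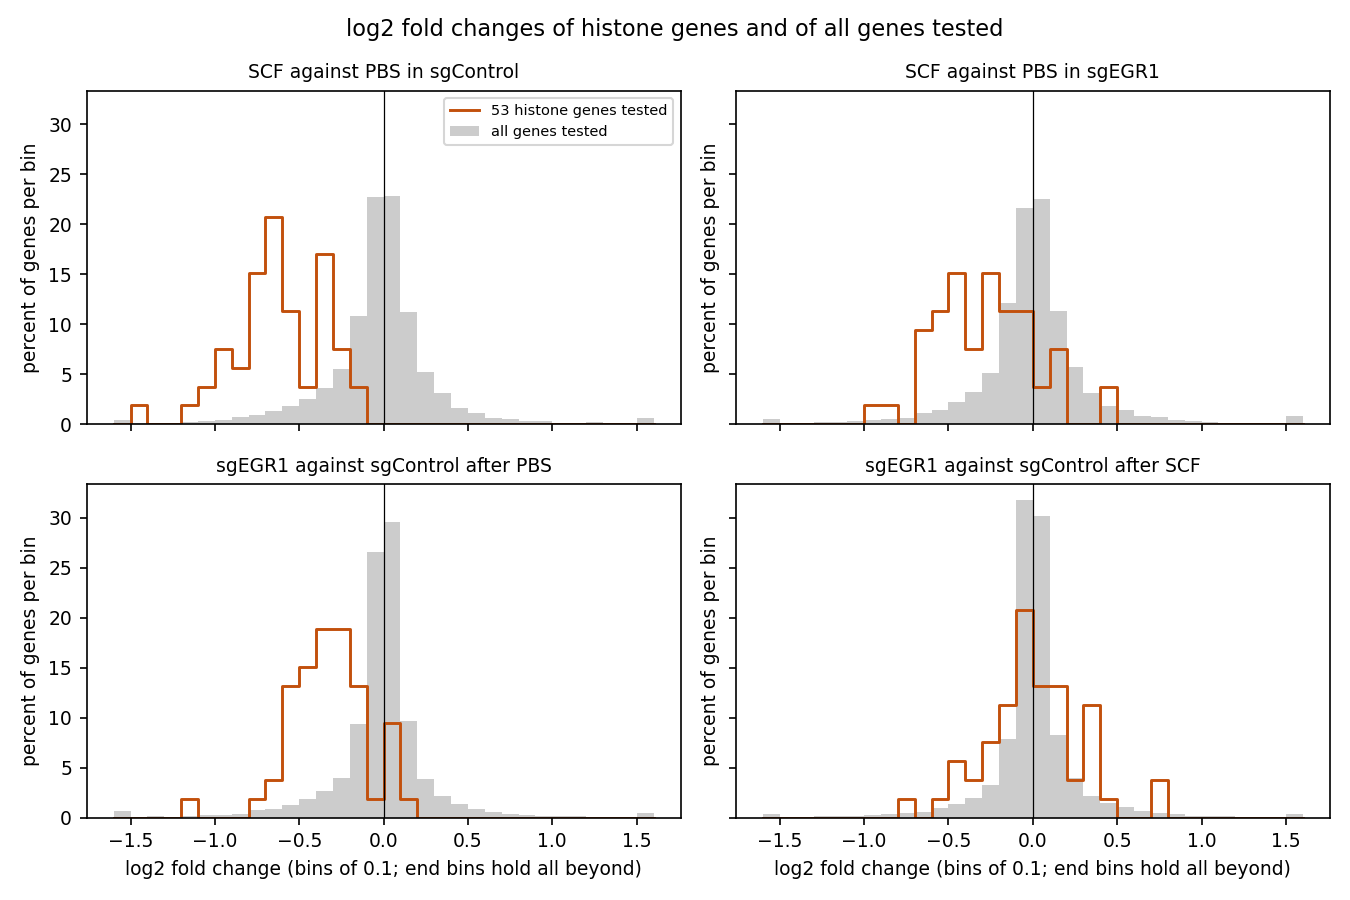
Percent of genes per bin of log2 fold change for the 53 histone genes tested (line) and all 15492 genes tested (grey bars) in each of the 4 comparisons of a pair of groups. The histone genes sit to the left of 0 for SCF in sgControl cells, with a median of -0.61, and around 0 for sgEGR1 against sgControl after SCF, with a median of -0.02.

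The 5 members that fell came from 4 families. H3C10, an H3 gene (GRCh38 chr6:27810051-27811300, plus strand), was at 4.59, 4.57 and 4.77 CPM in sgControl PBS and at 2.91, 2.83 and 2.42 CPM in sgControl SCF, which gave -0.77 on the log2 scale (SE 0.143, edgeR adjusted p 0.0141). H1-3, a linker histone gene (chr6:26234212-26234987, minus strand), was at 4.95, 6.10 and 6.59 CPM after PBS and 3.13, 4.03 and 3.30 CPM after SCF (-0.75, SE 0.158, edgeR adjusted p 0.026). H2AC17, an H2A gene (chr6:27892699-27893185, minus strand), was at 6.76, 6.73 and 6.83 CPM after PBS and 4.19, 4.07 and 3.11 CPM after SCF (-0.84, SE 0.177, edgeR adjusted p 0.0269). In none of these 3 genes did the groups overlap. H2AC17 shares exonic bases on the same strand with H3C12, so its counts are uncertain.

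H2AC4 and H4C9 are less abundant. H2AC4, an H2A gene (chr6:26033092-26033618, minus strand), was at 1.45, 1.10 and 1.51 CPM after PBS and 0.719, 0.533 and 0.786 CPM after SCF (-0.99, SE 0.235, edgeR adjusted p 0.0462). H4C9, an H4 gene (chr6:27139282-27139678, plus strand), was at 1.59, 1.30 and 1.94 CPM after PBS and 0.688, 0.633 and 0.817 CPM after SCF (-1.17, SE 0.28, edgeR adjusted p 0.047). Neither gene's groups overlapped, and both lay close to the threshold. Over the alternative fits the edgeR or DESeq2 adjusted p ran from 0.021 to 0.161 for H2AC4 and from 0.0116 to 0.18 for H4C9, beside 0.00149 to 0.0607 for H3C10, 0.00316 to 0.113 for H1-3 and 0.0015 to 0.105 for H2AC17.

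**Figure D3:**
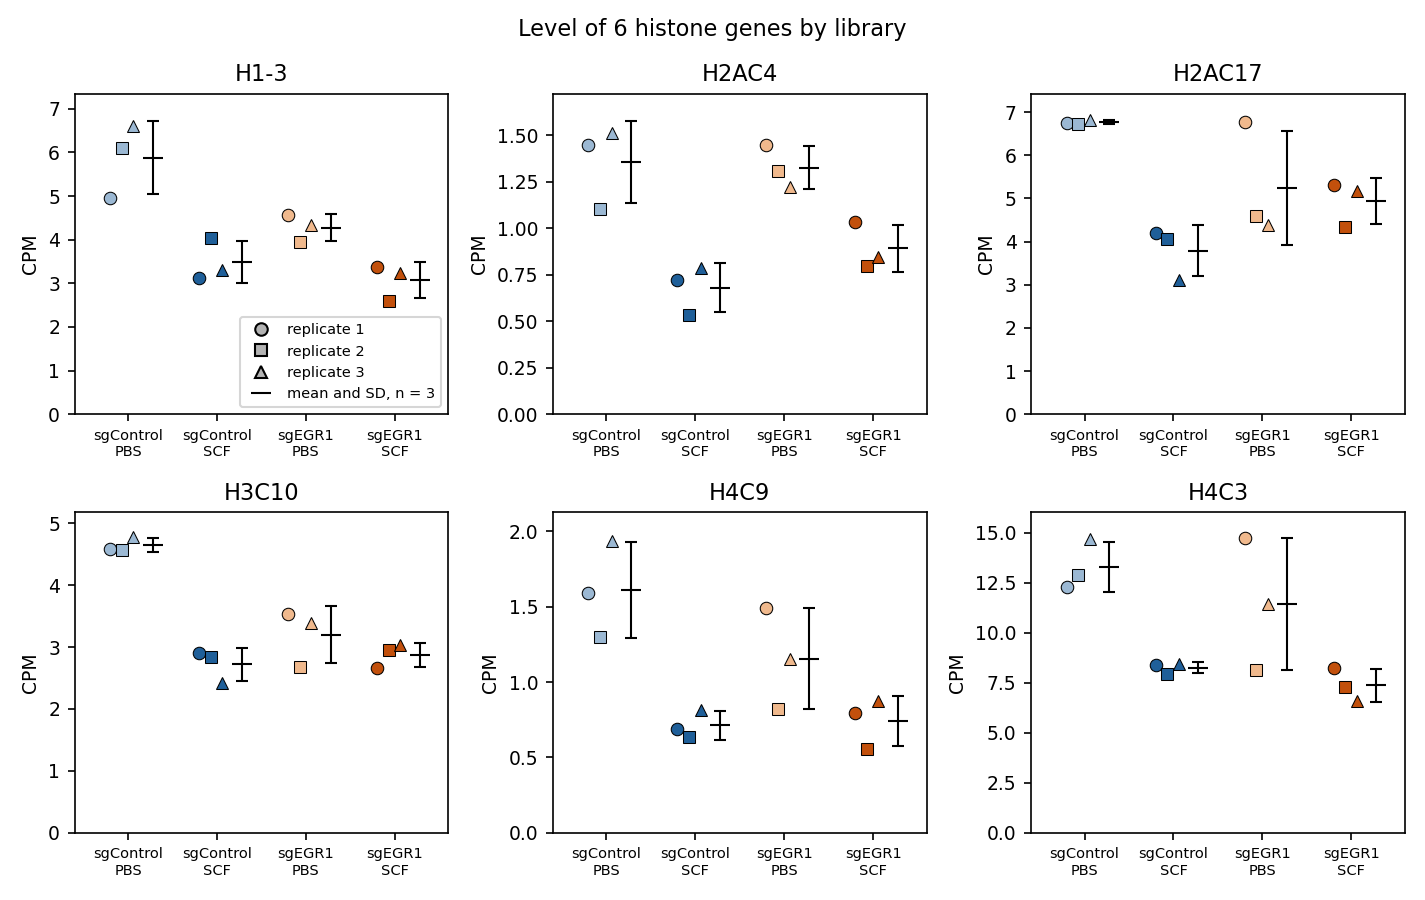
CPM of the 5 members called after SCF in sgControl cells and of H4C3 in each library, with the group mean and SD (n = 3). In all 6 panels the sgControl SCF libraries lie below the sgControl PBS libraries, while sgEGR1 PBS spans a wide range in H2AC17, H4C9 and H4C3.

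The other members named by level also had negative log2 fold changes, without passing the edgeR test. H4C3, the most abundant H4 gene, was at 12.3, 12.9 and 14.7 CPM after PBS and 8.41, 7.93 and 8.46 CPM after SCF (log2 fold change -0.68, edgeR adjusted p 0.0585). H2BC5 was at 9.94, 7.52 and 8.80 CPM and then 5.25, 6.47 and 6.57 CPM (-0.52, edgeR adjusted p 0.0577), and H3C3 at 6.32, 4.69 and 5.66 CPM and then 3.75, 3.17 and 3.24 CPM (-0.71, edgeR adjusted p 0.127). The groups did not overlap in these 3 genes. Their calls depended on the model, since H4C3 and H2BC5 passed with DESeq2 (adjusted p 0.0104 and 0.018), and all 3 passed when blocked on replicate number (edgeR adjusted p 0.0165, 0.0231 and 0.0117 for H4C3, H2BC5 and H3C3) and with a term for replicate 1. H4C3 passed in 8 of 21 alternative fits, H2BC5 in 4 and H3C3 in 3. Of the called members, H3C10 passed in 18 of 21, H1-3 in 16 and H2AC17 in 15. H4C9 passed in 7 of 20 and H2AC4 in 5 of 20.

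A further 5 named members also had no overlap between the sgControl groups, with edgeR adjusted p-values from 0.159 to 0.36. H3C7 was at 3.97, 3.54 and 3.72 CPM after PBS and 2.35, 2.60 and 2.42 CPM after SCF (log2 fold change -0.61), and H4C2 at 2.67, 3.54 and 3.26 CPM and then 2.00, 1.07 and 1.79 CPM (-0.96). H2AC11 was at 5.82, 4.61 and 5.90 CPM and then 4.03, 3.57 and 3.24 CPM (-0.59). Of the other H1 and H4 genes named, H1-5 was at 4.12, 4.76 and 4.19 CPM and then 2.50, 2.70 and 3.52 CPM (-0.58), and H4C5 at 3.40, 3.27 and 3.84 CPM and then 2.25, 2.30 and 2.48 CPM (-0.58). These 5 genes span 4 families. H4C2 passed with the block (edgeR adjusted p 0.0466), and H3C7 with the replicate 1 term (edgeR adjusted p 0.0474) and without sgEGR1 PBS replicate 1 (edgeR adjusted p 0.042).

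The most abundant H1 and H2B genes differed least. H1-2 was at 22.2, 21.1 and 19.1 CPM after PBS and 18.6, 18.2 and 18.7 CPM after SCF (log2 fold change -0.17, SE 0.08, edgeR adjusted p 0.366), with no overlap. H2BC12 was at 20.9, 17.1 and 16.2 CPM after PBS and 19.1, 15.8 and 14.3 CPM after SCF (-0.14, SE 0.186, edgeR adjusted p 0.837), and its groups overlapped. H2BC4, at 6.36, 8.03 and 7.64 CPM after PBS and 5.69, 6.67 and 5.69 CPM after SCF (-0.29), and H2AC6, at 5.85, 4.80 and 4.46 CPM and then 3.47, 4.03 and 5.06 CPM (-0.27), overlapped as well. The 8 members whose RefSeq span exceeds 1000 bases, of which 7 were tested, had a median log2 fold change of -0.33, beside -0.63 for the 46 shorter members tested. The split was made after the values were seen and was not tested.

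**Figure D4:**
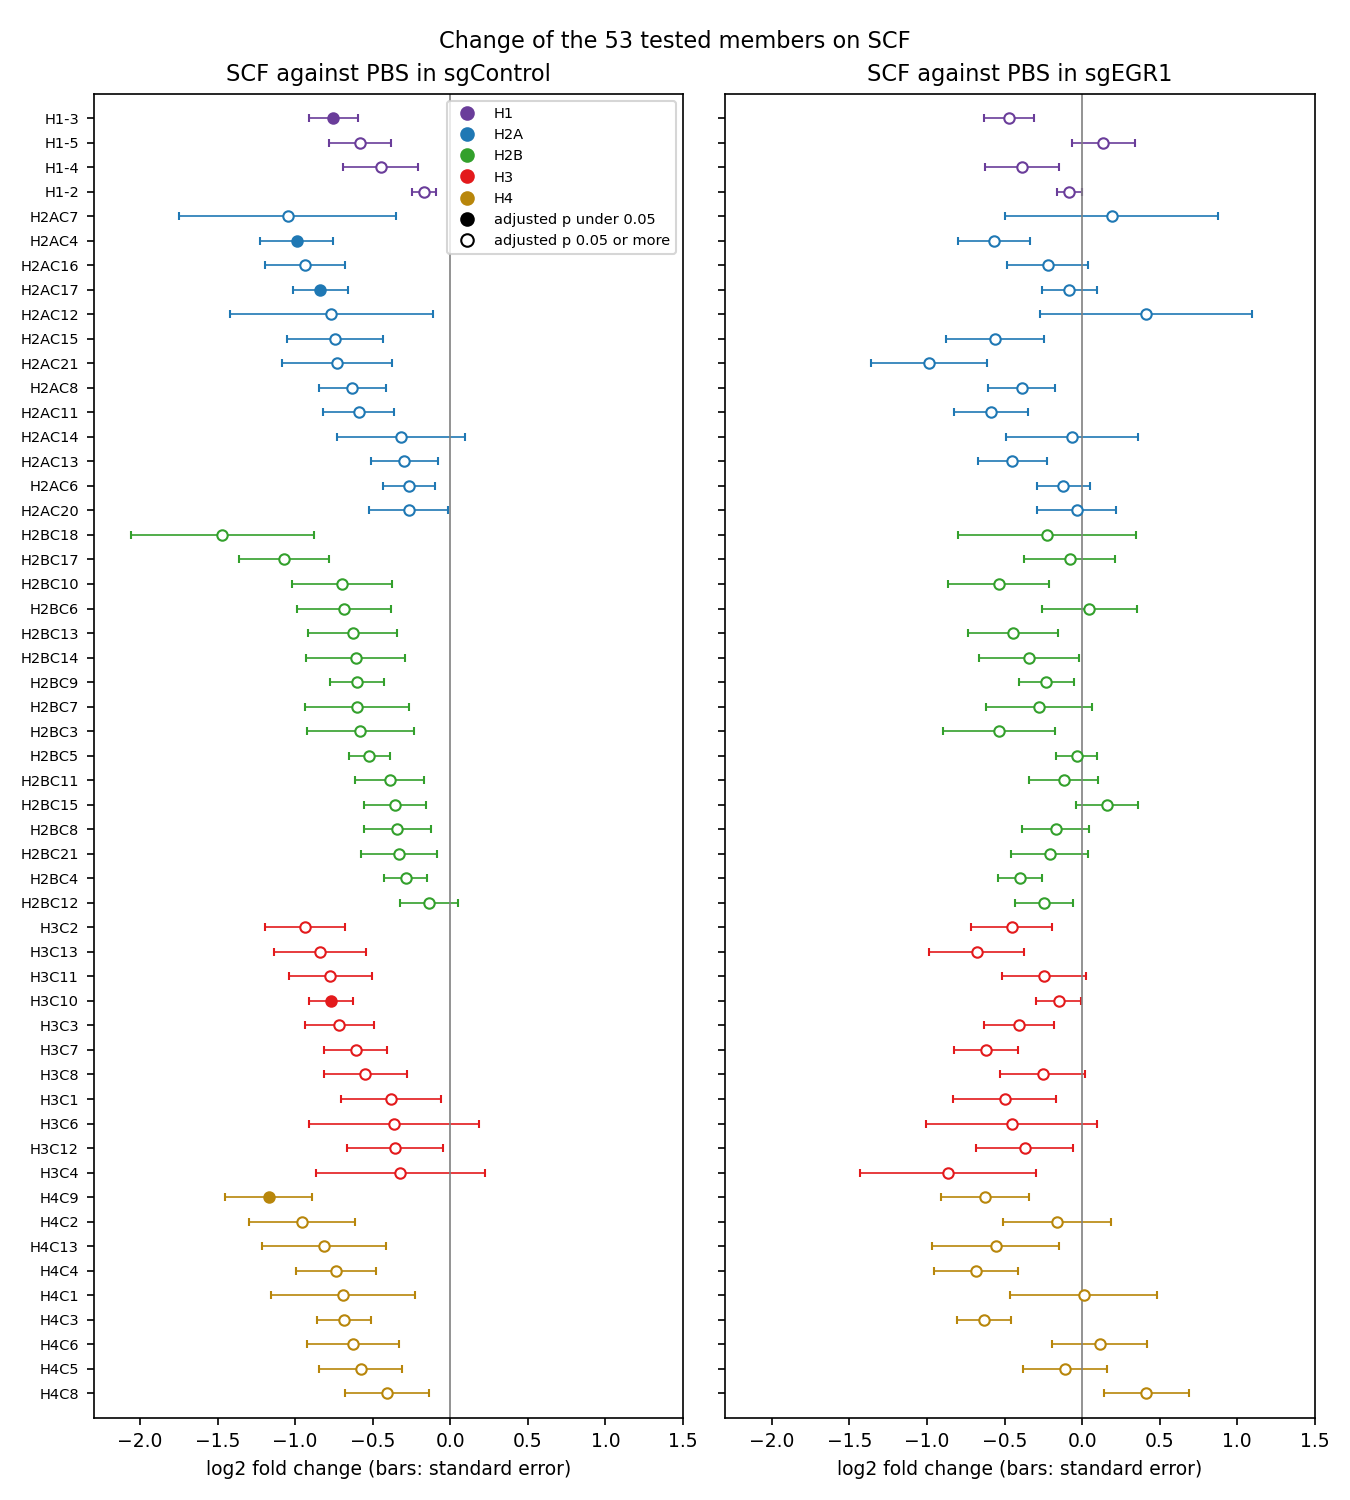
log2 fold change (bars, standard error) of the 53 members tested on SCF in sgControl cells (left) and sgEGR1 cells (right), grouped by family and ordered within it by the left panel. All 53 points lie below 0 on the left, 5 of them filled for an adjusted p under 0.05, and 45 lie below 0 on the right with none filled.

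The number of members that fell depended on single libraries. It was 2 without sgControl PBS replicate 1 or replicate 2, 0 without sgControl PBS replicate 3, 1 without sgControl SCF replicate 1, 2 without sgControl SCF replicate 2 and 0 without sgControl SCF replicate 3. It was also 3 without sgEGR1 PBS replicate 3, without sgEGR1 SCF replicate 2 or without sgEGR1 SCF replicate 3 (the library whose label is in doubt). The sgEGR1 libraries are in neither group compared, but enter the filter, the scaling and the shared estimate of the spread. In these fits 53 to 55 members kept a negative log2 fold change, of 53 to 55 tested.

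Other RNAs that lack a poly(A) tail were set beside the histone genes. This list of 20 was made after the data were seen. In sgControl cells 0 of the 15 tested were called by edgeR or DESeq2, 4 had an unadjusted edgeR p under 0.05, all lower, and 12 had a negative log2 fold change, with a median of -0.44. RN7SK, the scaffold RNA that holds P-TEFb inactive, was at 97.5, 77.3 and 94.5 CPM after PBS and 72.7, 55.2 and 56.4 CPM after SCF (-0.55, edgeR adjusted p 0.289), and the groups did not overlap. TERC, the telomerase RNA, was at 3.47, 2.21 and 3.06 CPM after PBS and 1.88, 1.80 and 1.16 CPM after SCF (-0.85, edgeR adjusted p 0.149). In sgEGR1 cells 6 of the 15 had a negative value, with a median of 0.32. There 0 were called by edgeR or DESeq2, and 4 had an unadjusted edgeR p under 0.05, all higher. Without the library labelled sgEGR1 SCF replicate 3, 6 of 16 tested were negative, with a median of 0.30. In that fit 5 had an unadjusted edgeR p under 0.05, all higher. Their part in the histone result was not tested.

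The promoters of the members were searched for elements known from histone genes. The RefSeq table held 61 of the 66 members, each with 250 bases before and 50 after the start. TATAAA was found on either strand in 67.2% of these, against 11.5% of all 35116 promoters, and CCAAT in 85.2%, against 34.6%. CCAAT was in every H1, H2A, H2B and H3 promoter of the table and in 25% of the H4 promoters. The octamer ATTTGCAT, which POU2F1 binds, was in 42.6% of member promoters against 1.77% of all, with 82.4% of the H2B and 73.3% of the H2A promoters but 0 of the H4 promoters. Many H2A and H2B genes form divergent pairs that share a promoter, so these shares are not independent. The stretch listed for H3C4 is the one listed for H2AC7, so an H2A stretch is also counted among the H3 promoters. The EGR motif GCGTGGGCG was in 0 of 61 member promoters and 0.795% of all, and the AP-1 motif TGANTCA in 1.64% and 7.71%. The 150 bases before the start of the 5 called members are given 5′ to 3′ on the sense strand of GRCh38.p14, with CCAAT letters, the TATAAA element and the octamer, on either strand, in capitals.
H1-3, chr6:26234988-26235137, minus strand: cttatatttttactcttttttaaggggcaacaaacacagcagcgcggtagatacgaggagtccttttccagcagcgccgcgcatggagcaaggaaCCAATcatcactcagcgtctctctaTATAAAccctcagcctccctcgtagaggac
H2AC4, chr6:26033619-26033768, minus strand: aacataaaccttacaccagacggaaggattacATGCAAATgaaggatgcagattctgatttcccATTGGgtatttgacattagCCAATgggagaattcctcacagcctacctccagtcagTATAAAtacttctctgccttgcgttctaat
H2AC17, chr6:27893186-27893335, minus strand: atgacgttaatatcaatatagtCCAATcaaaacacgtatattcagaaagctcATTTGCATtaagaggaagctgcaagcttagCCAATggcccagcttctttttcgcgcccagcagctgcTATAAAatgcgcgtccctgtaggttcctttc
H3C10, chr6:27809901-27810050, plus strand: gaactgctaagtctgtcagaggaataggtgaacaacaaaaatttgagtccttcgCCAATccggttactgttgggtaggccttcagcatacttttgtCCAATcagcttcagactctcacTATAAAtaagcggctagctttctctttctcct
H4C9, chr6:27139132-27139281, plus strand: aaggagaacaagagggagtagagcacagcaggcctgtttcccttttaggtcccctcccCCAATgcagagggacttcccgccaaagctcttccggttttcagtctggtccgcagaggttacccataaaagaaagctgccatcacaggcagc
H1-3, H2AC4, H2AC17 and H3C10 hold TATAAA close to the start, and H4C9 does not hold these letters in the stretch shown. A match is a description of letters and not of binding.

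In sgEGR1 cells the summed levels after PBS and SCF overlapped. Members summed to 212.5, 140.5 and 159.3 CPM in sgEGR1 PBS replicates 1, 2 and 3 (170.8 ± 37.4 CPM) and to 162.9, 132.1 and 133.3 CPM in sgEGR1 SCF (143 ± 17.4 CPM), a ratio of 0.836. The overlap came from sgEGR1 SCF replicate 1, which lay above both sgEGR1 PBS replicates 2 and 3. Between libraries with the same number the ratio was 0.766, 0.94 and 0.837. Of the 53 members tested, 0 were called, beside 2.59% of all genes. At an unadjusted p under 0.05 edgeR gave 10 members, all lower, against 6.88% of all genes, and DESeq2 called 1. The log2 fold change was negative in 45 members, against 50.1% of all genes, with a median of -0.25, and groups did not overlap in 8 members (15.1%), all lower, against 10% of all genes.

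The lowest p-values in sgEGR1 cells were those of H4C3 and H3C7. H4C3 was at 14.7, 8.16 and 11.4 CPM after PBS and 8.25, 7.28 and 6.59 CPM after SCF (log2 fold change -0.63, SE 0.175, edgeR adjusted p 0.0863), and the groups overlapped by a single library, since sgEGR1 PBS replicate 2 lay below sgEGR1 SCF replicate 1. H3C7 was at 4.39, 2.46 and 2.69 CPM and then 2.31, 1.94 and 1.94 CPM (-0.62, SE 0.207, edgeR adjusted p 0.16), with no overlap. Whether same-numbered libraries are paired is not known, and blocking on the replicate number called 1 member, H4C3.

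The 5 members that fell in sgControl cells differed among themselves in sgEGR1 cells. H1-3 was at 4.56, 3.95 and 4.33 CPM after PBS and 3.38, 2.60 and 3.25 CPM after SCF (log2 fold change -0.47, edgeR adjusted p 0.166), and H2AC4 at 1.45, 1.30 and 1.22 CPM and then 1.03, 0.798 and 0.843 CPM (-0.57, edgeR adjusted p 0.266). The groups did not overlap in these genes. H4C9 was at 1.49, 0.820 and 1.15 CPM and then 0.794, 0.555 and 0.874 CPM (-0.63, edgeR adjusted p 0.327), H3C10 at 3.54, 2.68 and 3.38 CPM and then 2.66, 2.95 and 3.03 CPM (-0.15, edgeR adjusted p 0.712), and H2AC17 at 6.77, 4.58 and 4.40 CPM and then 5.32, 4.33 and 5.18 CPM (-0.083, edgeR adjusted p 0.905). The groups overlapped in these 3.

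Among the other named members, H2AC11 and H2BC4 had no overlap between the sgEGR1 groups. H2AC11 was at 6.13, 3.24 and 3.38 CPM and then 3.04, 3.09 and 2.34 CPM, and H2BC4 at 8.52, 6.18 and 8.23 CPM and then 5.94, 5.62 and 5.81 CPM. H1-2 stayed between 18.9 and 23.1 CPM in all 6 sgEGR1 libraries, and H2BC12 between 14.1 and 24.7 CPM. The sgEGR1 groups overlapped in both genes, and in the next 6. H1-5 lay between 2.91 and 4.80 CPM, H2AC6 between 3.68 and 4.77 CPM and H2BC5 between 6.97 and 8.37 CPM. H3C3 lay between 2.65 and 5.71 CPM, H4C5 between 1.85 and 3.88 CPM and H4C2 between 0.936 and 2.77 CPM. In these last 3 genes sgEGR1 PBS replicate 1 was the highest library.

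The size of the change in sgEGR1 cells moved with single libraries. The median log2 fold change was -0.076 without sgEGR1 PBS replicate 1, with 33 of 55 members negative, and -0.46 without sgEGR1 SCF replicate 1, with 50 of 55 negative. It was -0.21, with 42 of 54 negative, 0 called by edgeR or DESeq2 and 5 at an unadjusted edgeR p under 0.05, without the library labelled sgEGR1 SCF replicate 3, where H4C3 had -0.55 (edgeR adjusted p 0.265), and -0.42 with 1 called without sgEGR1 PBS replicate 2.

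Between guides after PBS, members were mostly lower in sgEGR1 cells. By edgeR or DESeq2 0 members were called, beside 0% of all genes by edgeR. EGR1, near which the guide is directed, was itself not called by edgeR here, at a log2 fold change of -2.59. In edgeR 4 members had an unadjusted p under 0.05 (H3C10, H1-3, H4C4 and H4C6), all lower, against 2.35% of all genes. The log2 fold change of sgEGR1 over sgControl was negative in 47 of 53 members, against 49.7% of all genes, with a median of -0.34. The groups did not overlap in 8 members, all lower (15.1%, against 4.66% of all genes). H3C10 was at 3.54, 2.68 and 3.38 CPM in sgEGR1 PBS, below its 3 sgControl PBS libraries (-0.54, SE 0.143, edgeR p 0.00278, adjusted p 0.999). H1-3 was at 4.56, 3.95 and 4.33 CPM there (-0.46, SE 0.158, edgeR p 0.0132, adjusted p 0.999), also with no overlap. The summed level of sgEGR1 PBS replicate 1, at 212.5 CPM, was above all 3 sgControl PBS libraries, while replicates 2 and 3 lay below them. From replicates 2 and 3 alone the median was -0.55, with 52 of 54 members negative and 0 called.

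Between guides after SCF, members were on both sides of 0. The ratio of summed levels was 1.01, and 28 of 53 log2 fold changes were negative, against 50.1% of all genes, with a median of -0.02. By edgeR 0 were called, beside 0% of all genes, and DESeq2 also called 0. The groups did not overlap in 8 members, 4 lower and 4 higher, against 3.53% and 3.61% of all genes. At an unadjusted p under 0.05 edgeR gave 1 member, higher, against 1.39% of all genes. This was H2BC5, at 7.94, 7.25 and 7.84 CPM in sgEGR1 SCF against 5.25, 6.47 and 6.57 CPM in sgControl SCF (0.33, SE 0.132, edgeR p 0.0268, adjusted p 1). H2AC17 was next, at 5.32, 4.33 and 5.18 CPM in sgEGR1 SCF (0.38, SE 0.177, edgeR p 0.0514). Without the library labelled sgEGR1 SCF replicate 3, 23 of 54 members were negative, with a median of 0.037, 0 called by edgeR or DESeq2 and 0 at an unadjusted edgeR p under 0.05, and H2BC5 had 0.31 (edgeR p 0.0643).

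The difference between the SCF responses of the guide groups was tested as an interaction. It called 0 members in edgeR, beside 0% of all genes, and 0 members in DESeq2. In edgeR 5 members had an unadjusted p under 0.05 (H3C10, H2AC17, H2BC5, H1-5 and H2BC17), all above 0, against 1.1% of all genes. In sgEGR1 cells the response of H1-5 was positive (0.14), and the others were less negative than in sgControl cells. The median over members was 0.26, with 44 of 53 above 0, against 49.7% of all genes. H3C10 had the lowest p, with a difference of 0.62 on the log2 scale (SE 0.203, edgeR p 0.0103, adjusted p 1), followed by H2AC17 at 0.75 (SE 0.25, edgeR p 0.0106, adjusted p 1). When the library labelled sgEGR1 SCF replicate 3 was left out, the median was 0.31, with 46 of 54 above 0 and 0 called by either tool, and H3C10 had 0.58 (edgeR p 0.0233) and H2AC17 0.72 (edgeR p 0.0227). The comparisons share libraries. The sgControl PBS libraries enter the SCF response in sgControl cells, the guide comparison after PBS and the interaction alike.

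Replicate 1 libraries held more counts of histone genes than the others. In a model with the 4 groups and a term for replicate 1, 7 of 53 members (13.2%) were called, all higher in replicate 1, which is the share of all genes called higher (13.1%). The log2 difference was positive in 49 members, against 50.9% of all genes, with a median of 0.35. H2BC12 had the lowest adjusted p, with a difference of 0.41 (SE 0.066, edgeR adjusted p 0.000543), and its replicate 1 libraries were the highest of every group. The labels give no batch. With this term in the model, 13 members fell in sgControl cells after SCF, and 12 when the library labelled sgEGR1 SCF replicate 3 was left out as well. From replicates 2 and 3 alone 5 fell.

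Some counts switched between libraries. H2AC12, an H2A gene (chr6:27147106-27147562, plus strand), had 98, 72 and 77 counts in sgControl PBS, 67, 56 and 49 in sgControl SCF, 46, 0 and 64 in sgEGR1 PBS and 65, 52 and 49 in sgEGR1 SCF. It was the single member with a 0 in any library and at least 50 counts in another, and a count of 0 at the depth of sgEGR1 PBS replicate 2 allows up to 0.112 CPM, against 1.53 to 3.54 CPM in the other libraries. Among members with a coding sequence of the same length, the only ones compared, its closest relative is H2AC14, at 90.6% identity. Its SCF response in sgEGR1 cells was 0.41 on the log2 scale (SE 0.685) and turned to -0.17 without that library. The other 7 members with both a 0 and a count (H1-1, H1-6, H2AC18, H2AC19, H3C14, H3C15 and H4C7) reached at most 8 counts.

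H2AC7 and H3C4 differed in opposite directions between libraries, and were picked out after their values were seen. H2AC7 had 74, 74 and 18 counts in sgControl PBS, 41, 4 and 51 in sgControl SCF, 15, 51 and 53 in sgEGR1 PBS and 77, 35 and 38 in sgEGR1 SCF. H3C4 had 50, 47 and 129, then 79, 95 and 41, then 119, 33 and 43, then 49, 42 and 35. The 3 libraries with the fewest H2AC7 counts were the 3 with the most H3C4 counts. Their sum ran from 73 to 147 counts, with 4.98 ± 0.639 CPM in sgControl PBS and 3.32 ± 0.431 CPM in sgControl SCF (SD, n = 3). Both genes (chr6:26198784-26199293 and chr6:26196784-26197286, minus strand) share exons with a readthrough gene model, ENSG00000282988, on the same strand. The RefSeq gene H3C4 spans 2510 bases, beside a canonical transcript of 503 bases. It is listed with the same promoter stretch as H2AC7 (chr6:26199294-26199443), so H2AC7 lies within its span. Whether the readthrough model or this overlap takes part in the switch was not tested. With both genes summed to 1 feature, 5 members were again called in sgControl cells. Fold changes of either gene alone are unreliable.

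**Figure D5:**
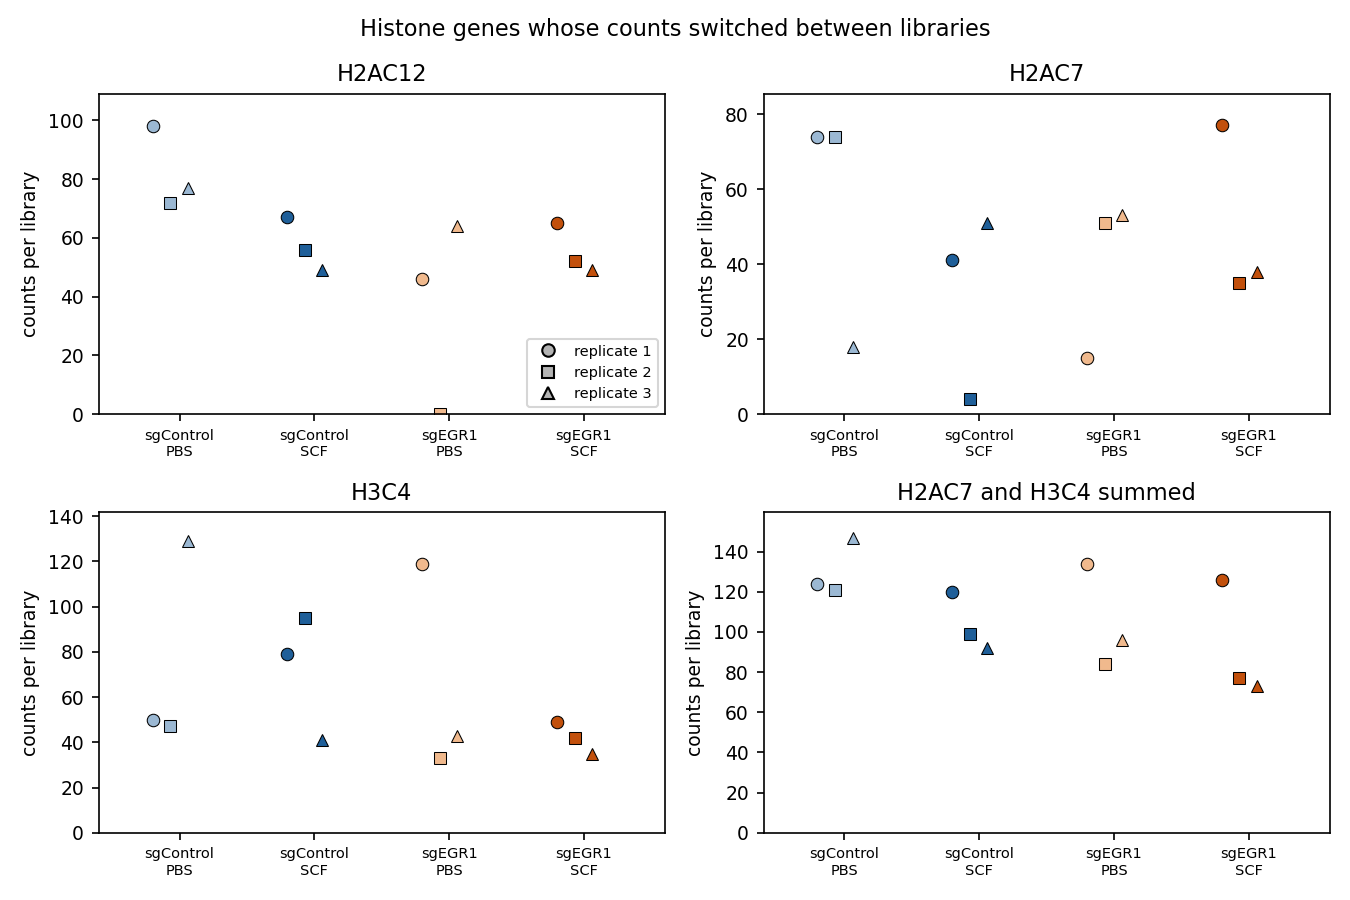
Counts of H2AC12, H2AC7, H3C4 and the sum of the last 2 in each of the 12 libraries. H2AC12 is at 0 in sgEGR1 PBS replicate 2 alone, and H2AC7 is low where H3C4 is high, and the sum lies between 73 and 147 counts.

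Replication-independent histone genes had a median close to 0. Of 11 listed, 10 were tested and 0 were called by edgeR in sgControl cells, with 1 at an unadjusted p under 0.05, and the median log2 fold change was 0.035. DESeq2 called 1, H3-3B, higher. H2AX, the variant phosphorylated at DNA breaks, was at 102.0, 111.3 and 110.0 CPM after PBS and 120.8, 121.5 and 101.3 CPM after SCF (0.088). H2AZ1 had a log2 fold change of 0.087 and H3-3A of -0.0039. H3-3B, which encodes the variant H3.3, was at 219.4, 194.0 and 180.8 CPM after PBS and 273.4, 251.4 and 252.5 CPM after SCF in sgControl cells (0.39, edgeR adjusted p 0.0822). In sgEGR1 cells it was the 1 gene of this list called by edgeR, higher by 0.52 on the log2 scale (edgeR adjusted p 0.0235), while DESeq2 called it and H2AX, both higher. Without the library labelled sgEGR1 SCF replicate 3, H3-3B had 0.56 (edgeR adjusted p 0.0502) and was the 1 gene that DESeq2 called.

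Calls among the factors that make and process histone mRNA depended on the tool. Of 17, edgeR called 0 in sgControl cells, with 5 at an unadjusted p under 0.05 and a median log2 fold change of 0.021, and DESeq2 called 2, CCNE2 higher and UPF1 lower. SLBP was at 111.3, 106.0 and 100.3 CPM after PBS and 125.1, 117.5 and 107.1 CPM after SCF (0.14, edgeR adjusted p 0.454), and NPAT had -0.036 (edgeR adjusted p 0.854). In sgEGR1 cells 2 fell by edgeR, CASP8AP2, a cofactor of NPAT in histone transcription (-0.28, edgeR adjusted p 0.0157), and UPF1, which takes part in histone mRNA decay (-0.24, edgeR adjusted p 0.0235). DESeq2 called 5 there, with NPAT, CASP8AP2, SYMPK and UPF1 lower and CCNE2 higher, and NPAT had -0.18 (edgeR adjusted p 0.104). Without the library labelled sgEGR1 SCF replicate 3, CASP8AP2 had -0.27 (edgeR adjusted p 0.0698) and UPF1 -0.25 (edgeR adjusted p 0.0804), edgeR called 1, CCNE2, higher, and DESeq2 called these 3. In sgControl cells UPF1 had -0.20 (edgeR adjusted p 0.0536) and CASP8AP2 -0.12. Of 14 histone chaperones 13 were tested. By edgeR 0 were called with either guide, with 2 at an unadjusted p under 0.05 for each. DESeq2 called 1 in sgControl cells and 0 in sgEGR1 cells. Of 12 S phase genes, CDC6, which loads the replicative helicase, rose in sgControl cells (0.40, edgeR adjusted p 0.00108) and sgEGR1 cells (0.38, edgeR adjusted p 0.00156). CDT1, its partner in loading, fell in sgControl cells (-0.28, edgeR adjusted p 0.0464), and its value in sgEGR1 cells was -0.19. At an unadjusted edgeR p under 0.05, 5 of the 12 were higher and 1 lower in sgControl cells, and 4 higher and 1 lower in sgEGR1 cells. DESeq2 called MCM6, RRM2 and CDC6 higher and CDT1 lower in sgControl cells, and PCNA, RRM2, GINS2 and CDC6 higher in sgEGR1 cells. The median of the list was 0.074 in sgControl cells and 0.064 in sgEGR1 cells. Without the library labelled sgEGR1 SCF replicate 3, CDC6 had 0.41 in sgEGR1 cells (edgeR adjusted p 0.00459), and DESeq2 called CDC6, GINS2 and PCNA. As a check of the SCF treatment, EGR1, FOSL1 and DUSP6 rose with both guides. Their log2 fold changes were 4.66, 2.80 and 2.39 in sgControl cells and 6.22, 3.09 and 2.44 in sgEGR1 cells. The EGR1 value in sgEGR1 cells was raised by the library labelled sgEGR1 SCF replicate 3, and without it the values were 5.18, 3.15 and 2.36.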

How the data were processed

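RNA-seq was performed in 12 HUDEP-2 libraries. The authors aligned reads to hg38 with HISAT and deposited a table of estimated counts per gene from StringTie, with 1 column per library and no scaling. All values were whole. The annotation release, the treatment of reads with several matches and the use of strand in counting are not given in the sources used here, and labels and methods name different library kits. Genes that overlap or share sequence are therefore uncertain. Table columns carry a code for each guide, and the code for sgEGR1 was assigned because no other construct remained.

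In R 4.3.3, counts were tested with edgeR 4.0.16 (quasi-likelihood), on all 12 libraries with TMM scaling, 1 coefficient per group and the filterByExpr filter, which kept 15492 genes. The threshold was an adjusted p of 0.05 (Benjamini-Hochberg over all of them). CPM are counts per megacount of the TMM-scaled total. Each standard error (SE) is the absolute log2 fold change divided by the square root of the edgeR F statistic, an approximation. Totals ran from 23.5 to 32.04 megacounts. Intervals and the floor of 3 counts cover counting error only. DESeq2 1.42.0, which the study used, other scaling and filters, a replicate block, a replicate 1 term and leaving out libraries were alternatives. The sum of H2AC7 and H3C4, and the other gene lists and the replicate 1 term refitted with sgEGR1 SCF replicate 3 left out, were added after the data were seen. Residuals (log2 of CPM plus 0.5) of same-numbered libraries correlated at 0.417, 0.069 and 0.183 for SCF in sgControl. In the other comparisons they correlated above 0.1 for every number (lowest 0.126). Libraries with different numbers were not compared, and replicate 1 stood apart in every group. These values therefore cannot decide whether same-numbered libraries are paired, and the main fit used no pairing. Stem-loops and positions come from GENCODE v44 and promoters from RefSeq. The code was tested on simulated counts.

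Members given in every library were the 3 most abundant by CPM of each family, all called members, those with 0 counts in 1 library and at least 50 in another, and the 2 with the lowest p per comparison. The members and lists were chosen with earlier results of these data known.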

Additional observations from a re-analysis of the deposited data

How the results depend on the processing

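For SCF in sgControl cells, 5 members fell in edgeR. The count was 8 with DESeq2, 3 with no filter on low counts, 3 with the libraries of the compared groups only, 13 with a term for replicate 1, 12 with that term when sgEGR1 SCF replicate 3 was also left out, and 0 to 7 when each library was left out in turn. With the replicate number as a block it was 13, but whether same-numbered libraries are paired is not known. For SCF in sgEGR1 cells the count of 0 became 1 with DESeq2, 1 with the block, 1 with the replicate 1 term and 0 to 1 when libraries were left out. For the guide comparisons and the interaction it stayed at 0 in every setting, the block included. The joint test of 4 groups called 14 members in place of 3 with the replicate 1 term. In all settings run, 0 members were called higher on SCF. When libraries were left out, negative log2 fold changes of members numbered 53 to 55 in sgControl cells and 33 to 50 in sgEGR1 cells. Between guides after PBS they numbered 44 to 53.

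No sign changed among named members for SCF in sgControl cells. In sgEGR1 cells small values changed sign. From replicates 2 and 3 only, H1-2 had 0.0095 and H2AC17 0.0858, and with the replicate 1 term and without sgEGR1 SCF replicate 3 H4C5 had 0.0387. When libraries were left out in turn, values ran from -0.0906 to 0.2662 for H1-5, -0.1743 to 0.9566 for H2AC12, -0.1962 to 0.1406 for H2AC17, -0.3912 to 0.025 for H2BC12, -0.1135 to 0.0126 for H2BC5, -0.3923 to 0.1846 for H4C2 and -0.4096 to 0.1791 for H4C5. The libraries behind these changes were all of the sgEGR1 groups. The cause was not tested.

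An alternative with members of identical protein summed was not run, because protein sequences were not used here. Members held 3770 to 5739 counts per library, and 13 of 66 were too low to test. With 3 libraries a group, an edgeR standard error of 0.27 was the median for a member.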
